A study of Mus musculus with 5 samples.

Results

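Genes of iron reduction, transport and storage were read in the colon of E18.5 mouse embryos. The set names 10 genes by role: the metalloreductases Steap4, Steap3 and Cybrd1, the iron importer Slc11a2, the transferrin gene Trf and its receptor Tfrc, the iron exporter Slc40a1 and its ferroxidase Heph, and the ferritin chains Fth1 and Ftl1. Every probe set that the array annotation assigns to 1 of these symbols alone was taken, which gave 17 of the 22626 probe sets tested and covered 8 of the 10 genes. Ftl1 and Trf had no such probe set. The set was put together with the results of the same comparison known, Steap4 being already seen to be lower, so the differences, intervals and p-values below describe the genes and are not independent evidence about them.

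There were 3 HNF4 null embryos of genotype HNF4LoxP/LoxP FoxA3Cre, called null_59, null_60 and null_426, and 2 control embryos of genotype HNF4LoxP/+ FoxA3Cre, called CONTROL_406 and CONTROL_421. Both groups therefore carried the Cre transgene, and the controls had 1 floxed allele and were not wild type. Foxa3, after which the transgene is named, is active in gut endoderm, so the wall around the epithelium is not the named target of deletion. Each embryo gave 1 array of total RNA from whole colon, and the labels name no litter or pool, so the p-values measure only the spread between these 5 samples.

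Iron enters an absorptive cell of the gut after a reductase on the microvilli, such as the Cybrd1 protein, has turned ferric into ferrous iron, which the Slc11a2 protein carries across the membrane. Inside the cell iron is stored in ferritin, built from Fth1 and Ftl1 chains, or leaves through ferroportin, the Slc40a1 protein and the known iron exporter of mammalian cells, while hephaestin, the Heph protein, oxidises it for loading onto transferrin. The Steap3 and Steap4 proteins reduce iron and copper at the cell surface and in endosomes. HNF4 alpha and gamma are nuclear receptors that switch on genes of absorptive cells.

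The promoter of Steap4, the gene with the largest difference in the set, is shown beside that of Cybrd1, the duodenal iron reductase gene, whose means in null and control colons were nearly equal. Promoter sequences are from RefSeq (build GRCm38.p6), run from 250 bases before to 50 bases after the annotated start, and were found for 6 of the 10 genes in 11 entries. Those of Slc40a1, Slc11a2, Heph and Trf were not used here. Steap4 lies at chr5:7960222-7960521 and Cybrd1 at chr2:71117804-71118103, both on the plus strand. Capitals mark the match to a motif of STAT factors, which act downstream of cytokines.
Steap4: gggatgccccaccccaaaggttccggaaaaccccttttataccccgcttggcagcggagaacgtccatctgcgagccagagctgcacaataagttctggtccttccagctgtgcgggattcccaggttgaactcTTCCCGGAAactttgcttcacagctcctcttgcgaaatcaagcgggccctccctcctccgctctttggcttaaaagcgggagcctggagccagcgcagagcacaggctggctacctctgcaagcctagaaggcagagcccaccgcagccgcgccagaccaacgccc
Cybrd1: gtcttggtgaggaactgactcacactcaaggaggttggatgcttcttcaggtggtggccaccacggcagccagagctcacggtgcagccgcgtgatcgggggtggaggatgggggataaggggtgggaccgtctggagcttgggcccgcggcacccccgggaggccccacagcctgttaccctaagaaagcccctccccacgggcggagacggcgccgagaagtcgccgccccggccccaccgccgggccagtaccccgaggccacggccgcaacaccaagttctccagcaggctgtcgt

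An HNF4 motif (CAAAGTCCA, or TGGACTTTG on the other strand) was in 0 of the 11 entries, and 0.475% of all 32851 promoter entries hold it. The STAT motif (TTCNNNGAA, which reads the same on both strands) was searched after the sequences had been seen. It was in 1 of the 11 entries, that of Steap4, starting 116 bases before the annotated start, and 8.3% of all entries hold it. These matches describe the letters in this window and say nothing of binding.

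Across the whole table the 5 arrays had medians from 123.7 to 135.2 deposited intensity units, and log2 values of pairs of arrays correlated across probe sets at 0.946 to 0.974. Intensities are linear values as deposited, differences are on a log2(intensity + 16) scale after quantile normalisation, and the threshold is an adjusted p under 0.05 by limma over all probe sets. Hnf4a, which encodes HNF4 alpha, read 650, 746 and 722 in the null arrays and 945 and 991 in the control arrays by its brightest probe set (-0.35 ± 0.17, SE), and 0 of its 4 probe sets passed limma's threshold, with 1 of them lower at unadjusted p below 0.05. The 4 differences went both ways, from -0.55 to 0.19, with 2 above 0. Which exons are floxed is not given in the labels. For Gapdh, the intensity at the 3' end over that at the 5' end of the message was 1.47 in CONTROL_421 and 0.768 to 0.895 in the other 4 arrays. For Actb the same ratio was 1.49, 1.83 and 1.55 in the null arrays, against 1.44 in CONTROL_406 and 1.76 in CONTROL_421, which this ratio did not set apart. Gut epithelial markers were measured for 9 of 9 genes, led by Lgals4, Krt8 and Krt19, and their summed intensity was 15863 to 18973 in null and 18535 to 20701 in control arrays. Of the colon markers Cdx2, Car1 and Hoxd13 were measured, with a summed intensity of 562 to 598 in null and 671 to 818 in control arrays.

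In the set as a whole 1 probe set passed limma's threshold, that of Steap4 with the higher intensity, and 16 did not. Over all probe sets 0.124% passed, with 0.106% lower and 0.0177% higher in null colons. At an unadjusted p under 0.05, 8 of the 17 were lower and 0 higher, against 4.33% lower and 2.82% higher over all probe sets. All 3 null arrays lay below both control arrays in 7 of the 17 and above them in 0, against 11.6% and 12.0% over all probe sets. The median log2 difference was -0.36 over the 17 probe sets and 0.016 over all probe sets. Taking each gene by its brightest probe set, the median was -0.37 over the 8 genes and 0.021 over 12393 genes, and 4 of the 8 (Steap4, Slc40a1, Slc11a2 and Heph) had a lower mean with an unadjusted p under 0.05 and 0 a higher one, against 4.24% and 2.60% of all genes. The choice of genes used this comparison, so these shares are given without a reading.

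**Figure D1:**
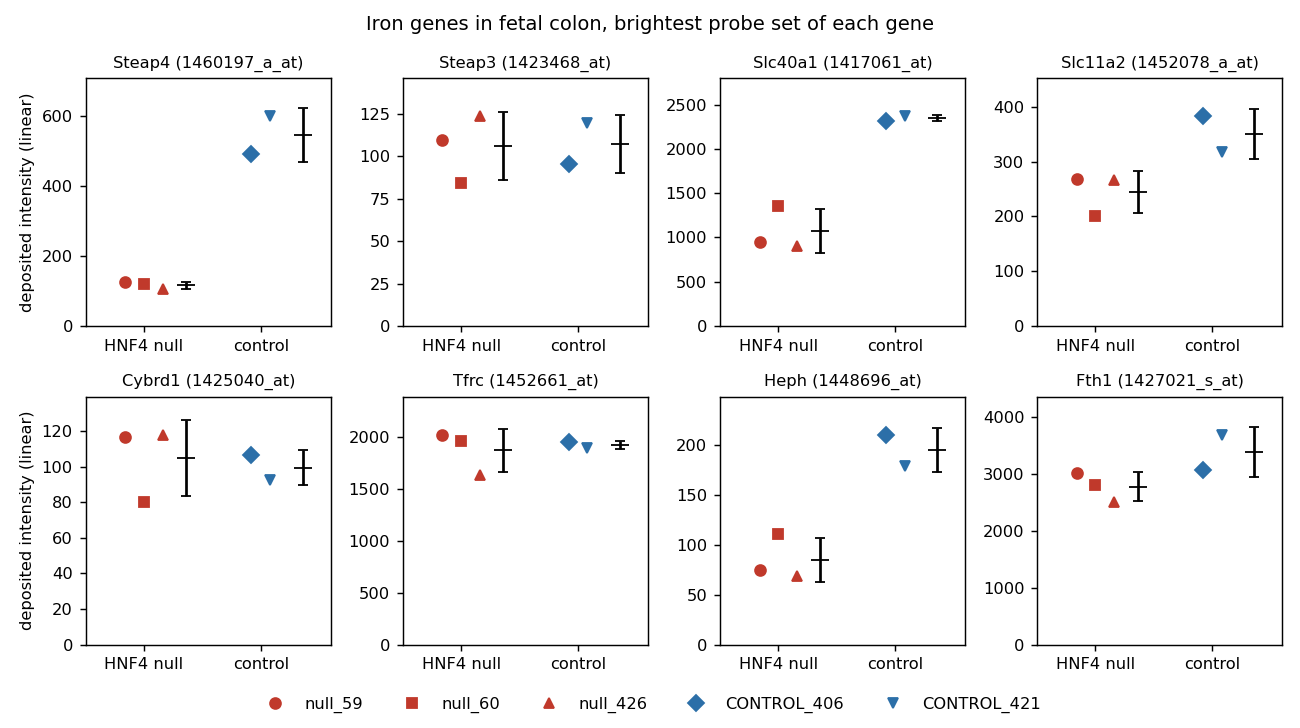
Deposited linear intensity of the 8 measured iron genes by the brightest probe set of each, with 1 point per embryo, HNF4 null (red) left of control (blue), and black bars for the mean ± SD. Steap4, Slc40a1, Slc11a2 and Heph had every null array below both control arrays, while Steap3, Cybrd1, Tfrc and Fth1 overlapped or nearly touched.

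Steap4, a membrane metalloreductase gene known to be induced by inflammatory cytokines, fell in HNF4 null colons. Probe set 1460197_a_at read 125, 120.2 and 105 in null_59, null_60 and null_426, against 489.9 and 599 in CONTROL_406 and CONTROL_421. The groups were far apart, and the 3 null arrays lay within 0.29 of each other on the log2 scale. The null mean was 117 ± 10.3 (SD, n = 3) and the control mean 544.5 ± 77.2 (SD, n = 2). The log2 difference was -2.08 ± 0.18 (SE, limma adjusted p = 0.00693), which is 4.22-fold lower with a 95% interval of 3.19-fold to 5.61-fold. Its p-value ranked 2 among the 22626 probe sets. The difference stayed between -2.23 and -1.90 with any 1 array left out.

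The other Steap4 probe set, 1425829_a_at, read 161, 108 and 127 in the null arrays, against 335 and 159 in the control arrays. CONTROL_421 was here at the level of null_59, and on the normalised log2 scale the null arrays lay just below it. The difference was -0.78 ± 0.27 (SE, adjusted p = 0.617). It was -1.22 without CONTROL_421 and -0.32 without CONTROL_406. CONTROL_421 was lower than CONTROL_406 by 0.915 on the log2 scale here and higher by 0.316 in the brighter probe set.

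Steap3, the endosomal ferrireductase gene that serves transferrin iron in red cell precursors, was measured by 3 probe sets. Its brightest, 1423468_at, read 110, 84.1 and 123.6 in null and 95.3 and 119 in control arrays. The groups overlapped, with a log2 difference of -0.07 ± 0.20 (SE, 95% interval -0.51 to 0.37). Probe set 1430355_a_at differed by -0.36 ± 0.20 (SE) and 1453498_x_at, at 14.1 to 30.4 near the bottom of the array range, by 0.28 ± 0.21 (SE). Of the 3 probe sets 0 passed limma's threshold or an unadjusted p under 0.05, and the sign of the brightest turned to 0.06 without null_60 and to 0.11 without CONTROL_421.

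Cybrd1 had 1 probe set, 1425040_at, which read 117, 80.3 and 118 in null and 106 and 92.5 in control arrays. The null arrays lay on both sides of the control arrays. The log2 difference was 4.8e-05 ± 0.19 (SE, 95% interval -0.43 to 0.43), and its sign turned under 4 alternatives. The mean intensity of this probe set lay at the 40.4th percentile of all probe sets.

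**Figure D2:**
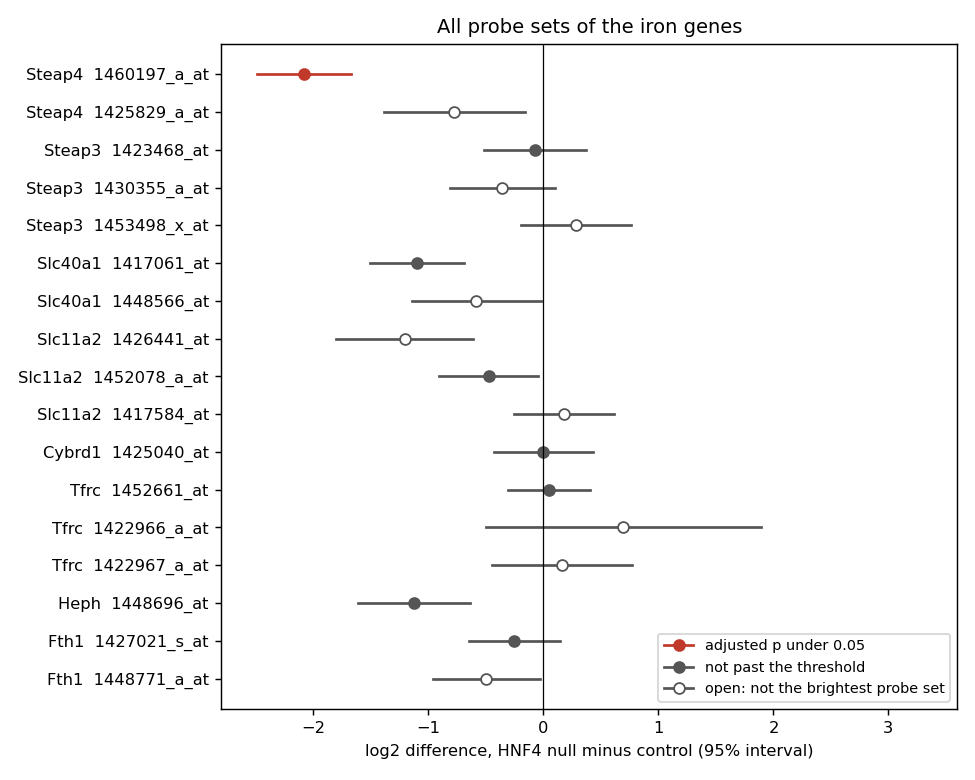
Log2 difference, HNF4 null minus control, with its 95% interval for all 17 probe sets of the 8 measured genes. Red marks an adjusted p under 0.05, grey the rest, and open circles the probe sets that are not the brightest of their gene. The brightest probe sets of Slc40a1, Slc11a2 and Heph have intervals that lie below 0 without passing the threshold.

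Slc11a2, which encodes the ferrous iron importer DMT1, gave 3 probe sets that differed from each other. By the brightest, 1452078_a_at, the null arrays read 268, 201 and 267 and the control arrays 383 and 318. Every null array was below both control arrays, and the log2 difference was -0.48 ± 0.19 (SE, adjusted p = 0.666). Probe set 1426441_at read 158, 151 and 110.0 in null arrays, against 463 and 242 in control arrays, again without overlap, a difference of -1.21 ± 0.26 (SE, adjusted p = 0.268). That difference was -1.60 without CONTROL_421 and -0.79 without CONTROL_406. Probe set 1417584_at read 127, 125 and 175 in null and 111 and 129 in control arrays, which overlapped, a difference of 0.18 ± 0.19 (SE). The 3 probe sets thus gave opposite signs for 1 gene, and the annotation used here does not say which transcript forms each one reads.

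Tfrc, the transferrin receptor gene that cells use to take up iron-loaded transferrin, had its highest intensity by 1452661_at, at the 98.6th percentile of all probe sets. This probe set read 2025, 1964 and 1633 in null and 1954 and 1899.6 in control arrays. The control values lay inside the null range. The log2 difference was 0.05 ± 0.16 (SE, 95% interval -0.31 to 0.40), and its sign turned to -0.05 in the table as deposited and to -0.09 after median centring.

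The 2 dimmer Tfrc probe sets followed another pattern. Probe set 1422966_a_at read 587, 252.8 and 312 in null arrays, against 475 and 93.5 in control arrays, a log2 difference of 0.69 ± 0.53 (SE, adjusted p = 0.801). The control arrays differed by 2.05 on the log2 scale, more than any other pair of control values in the set, and the difference was -0.33 without CONTROL_421 and 1.71 without CONTROL_406. Probe set 1422967_a_at read 123, 72.5 and 92.8 in null and 113 and 52.0 in control arrays (0.16 ± 0.27, SE), and its sign turned to -0.24 without CONTROL_421 and to -0.02 without null_59.

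The array maker also places 3 control probe sets on Tfrc, from its 3' part, its middle and its 5' part, which were not tested. The one from the 3' part read 364, 183 and 235 in null and 319 and 97.2 in control arrays. In the middle the values were 55.6, 13.1 and 39.9 in null and 54.1 and 11.0 in control arrays. At the 5' part they were 107, 52.5 and 86.8 in null and 118 and 64.3 in control arrays. Among the 5 Tfrc probe sets other than the brightest, CONTROL_421 was the lowest array in 4 and null_60 in 1. The 2 arrays with low values thus came from different genotypes, and the brightest probe set did not share the pattern. The 3' over 5' ratio of Tfrc was 2.71 to 3.49 in null arrays, 2.69 in CONTROL_406 and 1.51 in CONTROL_421. The part that RNA quality has in these values was not tested.

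**Figure D3:**
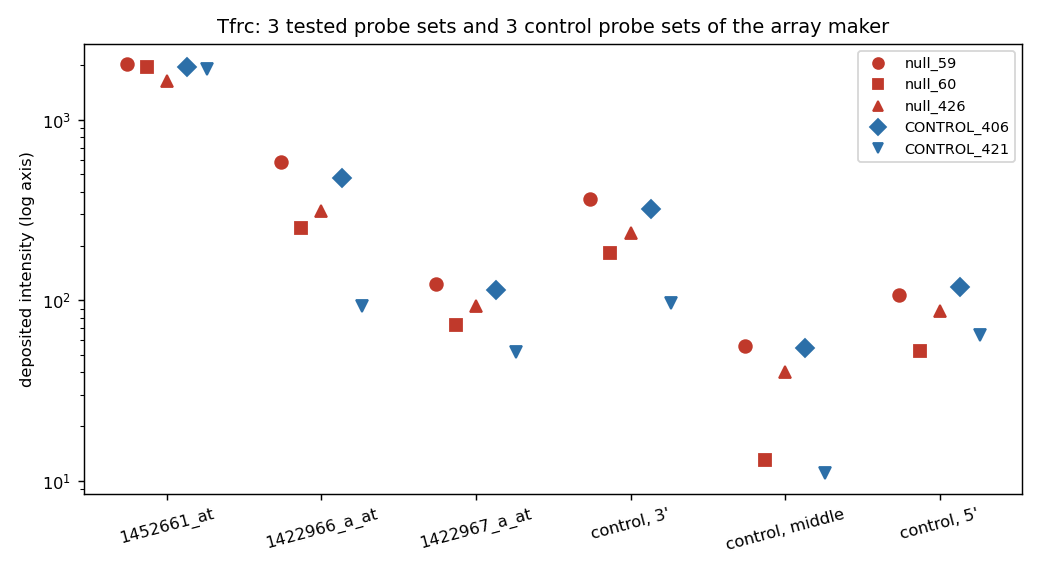
Deposited intensity of Tfrc on a log axis for the 3 tested probe sets and the 3 control probe sets, with 1 point per embryo, null arrays red and control arrays blue. The brightest probe set lies between 1633 and 2025 in all 5 arrays, while CONTROL_421 and null_60 are the 2 lowest arrays in the other 5 probe sets.

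Slc40a1, which encodes ferroportin, had lower values in every null array by its brighter probe set. Probe set 1417061_at read 951, 1355 and 907 in null arrays, against 2321 and 2369.9 in control arrays. No null array came near the control arrays, which lay within 0.119 of each other on the log2 scale. Null colons averaged 1071 ± 247 (SD, n = 3), and control colons 2345 ± 34.6 (SD, n = 2). The log2 difference was -1.10 ± 0.18 (SE), 2.14-fold lower with a 95% interval of 1.61-fold to 2.85-fold, and it did not pass limma's threshold (adjusted p = 0.0945). It passed with an intensity trend in the variance prior (adjusted p = 0.0338) and with array weights (0.0328), and its adjusted p ranged from 0.0328 to 0.451 over the 12 alternatives.

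The dimmer Slc40a1 probe set, 1448566_at, read 737, 670 and 549 in null arrays, against 1426 and 746 in control arrays. CONTROL_421 stood within reach of the null arrays and the groups overlapped after normalisation. The difference was -0.58 ± 0.25 (SE, adjusted p = 0.695), -1.01 without CONTROL_421 and -0.16 without CONTROL_406. Fewer cells of a type and less RNA per cell cannot be told apart in such bulk samples.

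Heph, whose product hephaestin is the membrane ferroxidase that works beside ferroportin in the gut, also had lower values in every null array. Its single probe set, 1448696_at, read 74.8, 110.3 and 68.7 in null arrays and 210.2 and 179 in control arrays. The groups did not overlap. Null colons averaged 84.6 ± 22.5 (SD, n = 3), and control colons 195 ± 22.1 (SD, n = 2). The log2 difference was -1.13 ± 0.22 (SE), 2.18-fold lower with an interval of 1.56-fold to 3.05-fold, and it did not pass limma's threshold (adjusted p = 0.172, and 0.0549 to 0.478 over 11 alternatives). The filter on dim probe sets gave no value for Heph, Cybrd1, Steap3 or the dimmest probe set of Tfrc.

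Slc40a1 and Heph are also expressed outside the epithelium, ferroportin strongly in macrophages that recycle iron. The markers of other cells were read beside them, each gene by its brightest probe set. The 12 macrophage markers, led by Csf1r, Cd14 and Adgre1, had a summed intensity of 1702 to 1971 in null and 1901 to 2064 in control arrays and a median log2 difference of -0.03. Of these 12 genes 0 passed limma's threshold, and Cd14 (-0.61) alone had an unadjusted p under 0.05. None of the 12 was at 0, and Cd163 was the dimmest, at 16.6 in null and 15.2 in control colons. Fcgr1 (39.05 and 32.4) and Cd68 (49.5 and 40.9) were dim as well. Lyve1, a gene of lymphatic vessels and some macrophages, is not in this list and is named below for its likeness to Steap4. It differed by -1.83 ± 0.24 (SE, limma adjusted p = 0.0271), so the list does not stand for all macrophages. The 9 epithelial markers had a median of -0.21, and 0 passed limma's threshold. With an unadjusted p under 0.05 by the brightest probe set, 3 were lower, namely Epcam (-0.66), Vil1 (-0.74) and Cdh17 (-0.86). The dimmer of the 2 Cdx2 probe sets, not counted here, had a limma adjusted p of 0.2479, against 0.3869 for Epcam. The 6 smooth muscle markers, led by Acta2, Actg2 and Tagln, had a summed intensity of 14677 to 16167 in null and 12208 to 15091 in control arrays and a median of 0.22, with 2 higher at an unadjusted p under 0.05 and 0 past limma's threshold. The part of cell composition in the iron genes was not tested.

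Erythroid cells take up much iron through the transferrin receptor. Of 13 listed erythroid markers 9 were measured, led by Hbb-y, Slc4a1 and Gata1, with a summed intensity of 1271 to 1793 in null and 1313 to 1327 in control arrays and a median log2 difference of 0.06. The highest sum was that of null_426, where Hbb-y read 675.6, against 278.9 to 375.3 in the other arrays. The part of erythroid cells in the Tfrc values was not tested. For 8 measured hepatocyte markers, led by Ttr, Apoh and Alb, the sums were 715 to 897 in null and 772 to 851 in control arrays. By the brightest probe set of each gene, 0 genes in the erythroid and hepatocyte lists passed limma's threshold and 0 had an unadjusted p under 0.05. Ttr, with 3 probe sets, had a limma adjusted p of 0.214 by a probe set that was not its brightest. The 4 markers each of enteric glia (median 0.09) and enteric neurons (0.18) gave the same counts by their brightest probe sets. Their sums were 705 to 990 and 520 to 763 in null and 728 to 816 and 465 to 668 in control arrays. The glial marker Sox10, with 3 probe sets, had a limma adjusted p of 0.3013 by a probe set that was not its brightest.

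Fth1, the heavy chain of ferritin with ferroxidase activity, had 2 probe sets, and neither passed the threshold. Probe set 1427021_s_at read 3010.1, 2816 and 2514 in null and 3079 and 3693 in control arrays. On the deposited scale the null arrays were lower, by a narrow margin between null_59 and CONTROL_406, and after normalisation the groups overlapped. The log2 difference was -0.25 ± 0.18 (SE, 95% interval -0.65 to 0.14).

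The other Fth1 probe set, 1448771_a_at, read 1555, 1715 and 1165 in null arrays, against 1904 and 2536 in control arrays. Here the null arrays stayed below both control arrays, with a difference of -0.50 ± 0.21 (SE, adjusted p = 0.688). In both probe sets CONTROL_421 was above CONTROL_406, by 0.334 and 0.520 on the log2 scale, and without CONTROL_421 the differences were -0.08 and -0.24. Ferritin heavy chain has processed copies in the genome, and how far the probe sets separate them from Fth1 is uncertain.

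How the 2 control arrays stood to each other differed between probe sets of 1 gene. By the brightest probe set of each gene, CONTROL_421 minus CONTROL_406 ranged from -0.19 to 0.36 on the log2 scale, with 3 of 8 below 0. In the other 9 probe sets it ranged from -2.05 to 0.52, with 6 below 0, and over all probe sets 47.6% were below 0. The dimmer probe sets of Steap4, Slc40a1 and Tfrc and 1426441_at of Slc11a2 were each lower in CONTROL_421 by more than 0.8. CONTROL_421 had the highest 3' over 5' ratio for Gapdh and not for Actb, and the part of that array's RNA quality in these values was not tested.

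Beyond these genes, 50 of 62 listed genes of iron and haem handling were measured and 0 passed limma's threshold, against 0.121% of all genes lower and 0.0161% higher. By the brightest probe set of each gene, 2 were lower and 0 higher at an unadjusted p under 0.05. Their median log2 difference was -0.04, from -0.56 to 0.46, and 26 of 50 lay below 0, against 46.5% of all genes. All null arrays were below both control arrays in 8 and above them in 6, against 11.8% and 12.6% of all genes.

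By the brightest probe set of each gene, Blvrb, a biliverdin and flavin reductase gene, had the smallest p in the list. It read 66.2, 68.6 and 65.9 in null and 119.6 and 85.0 in control arrays, a log2 difference of -0.56 ± 0.17 (SE, adjusted p = 0.571). Cisd1, which encodes the iron-sulphur protein mitoNEET of the outer mitochondrial membrane, read 382, 505 and 347 in null and 565 and 675 in control arrays, a difference of -0.55 ± 0.19 (SE, adjusted p = 0.615). In both genes the groups did not overlap. Fech, a haem gene with 4 probe sets, had a smaller limma adjusted p, 0.2423, by a probe set that was not its brightest.

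Ncoa4, the receptor that takes ferritin to the lysosome, differed by -0.36 ± 0.18 (SE), with null colons at 314 ± 15.4 (SD, n = 3) and control colons at 416 ± 84.8 (SD, n = 2). The iron-sulphur scaffold gene Iscu differed by -0.40 ± 0.20 and the assembly gene Isca1 by -0.33 ± 0.19 (SE). Aco1, which encodes the cytosolic aconitase that also acts as an iron regulatory protein, differed by -0.41 ± 0.23 (SE) with overlapping groups. On the other side stood Flvcr2, a membrane transporter gene, at 0.46 ± 0.21, and Hamp, the gene of the iron hormone hepcidin, at 0.33 ± 0.17 (SE). Hamp read 178, 165 and 175 in null and 153 and 110.1 in control arrays. Adjusted p-values by limma for these 6 ran from 0.702 to 0.761 by the brightest probe set. The dimmer of the 2 Hamp probe sets had 0.6519, so none of the 6 genes is called.

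By role, the median was -0.11 for the 2 measured genes listed under reductases and ferroxidases (Steap1 and Cp). It was 0.07 for 5 membrane transporters and 0.05 for 10 genes of bound iron uptake. It was -0.11 for 4 chaperone and ferritin turnover genes, -0.20 for 4 iron sensing genes and 0.28 for 5 genes of hepcidin and its regulators. The 14 haem genes had a median of -0.03 and the 6 iron-sulphur cluster genes one of -0.16. Steap1, a relative of Steap4 in the same protein family, differed by -0.12 ± 0.21 (SE), at 108 in null and 117 in control colons.

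**Figure D4:**
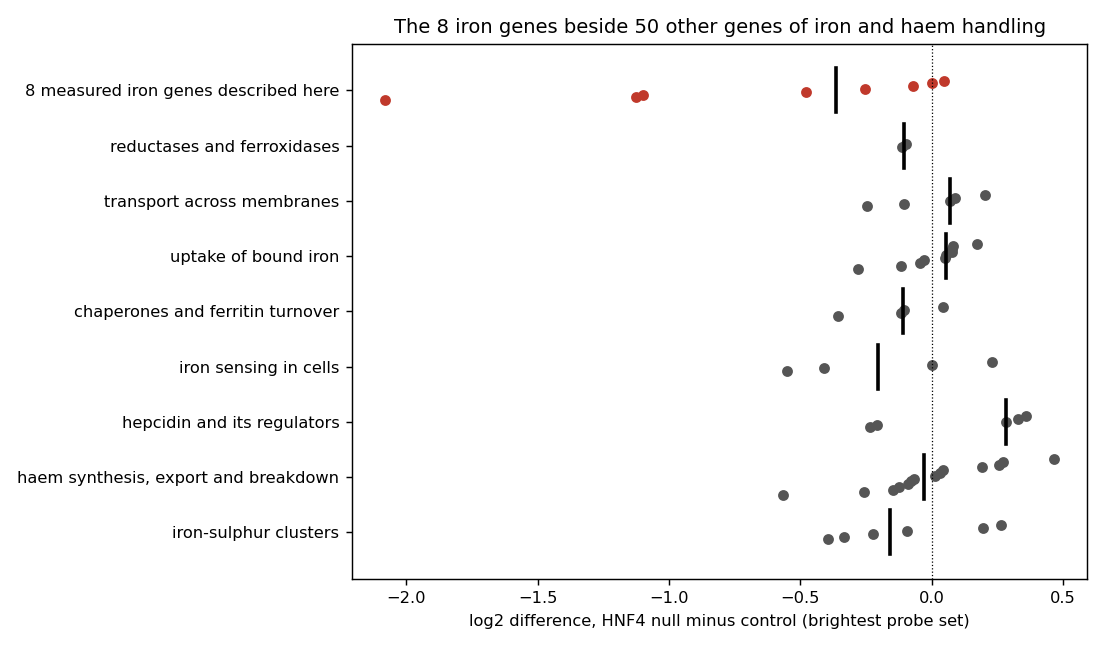
Log2 difference, HNF4 null minus control, by the brightest probe set of each gene, for the 8 measured iron genes (red) and 50 other iron and haem genes grouped by role (grey), with a black bar at each group's median. The 50 other genes lie between -0.56 and 0.46, while Steap4, Slc40a1 and Heph lie below -1.0.

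The genes whose values were most like those of Steap4 were sought among 7816 genes outside the set. Each had a mean at or above the median probe set in null or in control colons. The measure was the root mean square difference of log2 values centred on the mean of the 5 arrays. This measure was 0.150 for Cdhr5, a protocadherin gene of the microvilli, and 0.176 for Selenop, the secreted selenium carrier gene. It was 0.208 for Lyve1, a hyaluronan receptor gene of lymphatic vessels and some macrophages, and 0.213 for Slc39a4, a zinc importer gene. The list closed with the water channel gene Aqp8 at 0.237 and the sulfotransferase gene Sult1b1 at 0.263, and the median over all 7816 genes was 1.05. A gene without a difference lies far from Steap4 by this measure, so that median is no chance level. All 6 genes had the null arrays below both control arrays, which the likeness itself fixes, so no test was made. By the mean over the 5 arrays Lyve1, Slc39a4 and Sult1b1 lay at the 27.1st, 35.6th and 31.2nd percentile of all probe sets. These genes were candidates only through their control values. Cdhr5 read 150.5, 184 and 145 in null and 536 and 768 in control arrays, which shared with Steap4 the higher value in CONTROL_421. Slc39a4 read 41.5, 53.1 and 50.6 in null and 230.2 and 201 in control arrays, with CONTROL_406 the higher one.

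**Figure D5:**
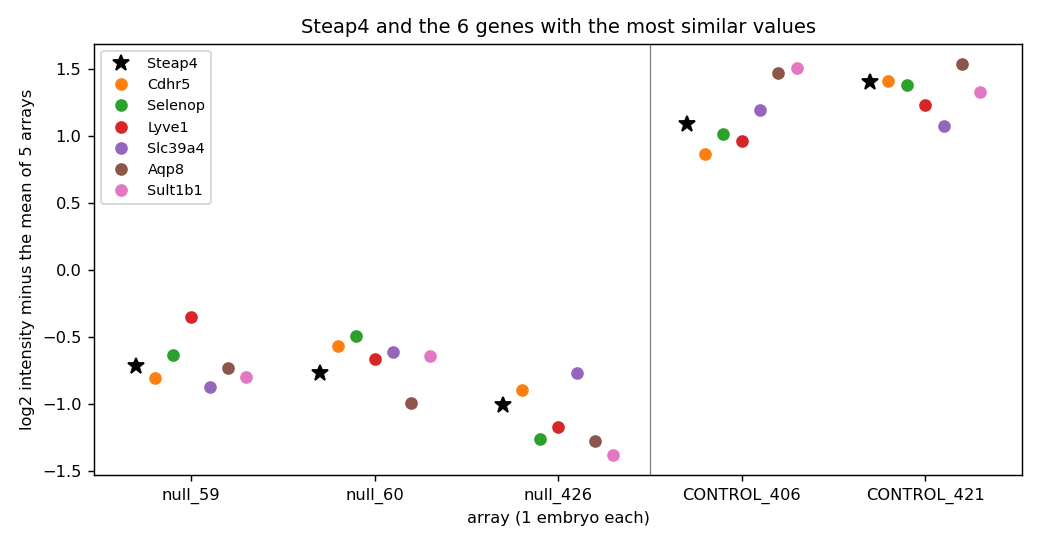
Log2 intensity minus its mean over the 5 arrays, for Steap4 (black star) and the 6 genes closest to it, with null arrays left of control arrays. Every null value is below 0 and every control value above 0, for all 7 genes shown.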

How the data were processed

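Colon RNA of 5 E18.5 embryos (3 HNF4 null, 2 control) was isolated with Qiagen RNeasy mini columns and biotin-labelled by the Affymetrix standard method, per the labels' protocols. In the deposited table there is 1 linear intensity per probe set and array. The software, background step and scaling behind these intensities are not given in the sources used here. Between 21 and 58 values per array lay below 0, so some subtraction came before deposit. Scanner files, slides and scan dates were not used here.

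Of 22690 probe sets 22626 were tested, leaving out 64 that serve the array maker as controls. A 2016 platform annotation gave 20380 of them 1 symbol, 691 several and 1555 none, and 20351 matched RefSeq genes by gene ID. Genes were named from probe sets with 1 symbol only. Values below 0 were set to 0, taken as log2(intensity + 16), quantile normalised and compared with limma 3.58.1 in R 4.3.3 (lmFit, eBayes, two-sided, 9.33 total degrees of freedom, Benjamini-Hochberg over all probe sets). Fold changes are on the log2(intensity + 16) scale and understate those of dim genes. A gene's brightest probe set is that with the highest mean log2 value over the 5 arrays.

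The genes, the lists and the tests were chosen with earlier results of these data known. Named were all genes of the set, the 6 genes most like Steap4 and up to 3 markers per list, those with the highest mean. The 8 other iron genes with the smallest unadjusted p by the brightest probe set were named as well. Further markers, Steap1, Cp, Fech and Cd163 were named with their values known. Alternatives tried were no normalisation, centring on array medians, a pseudocount of 1 or of 64, a filter on dim probe sets, a variance prior with an intensity trend, array weights and leaving out each array. The fit was tested on simulated data under both of a pair of variance models. With variances drawn from limma's fitted prior 4.75% of calls were false, under the nominal level, and 47.4% of 2-fold changes were found. With each probe set's own moderated variance, which was tried first, 9.8% were false, above that level, and 84.5% were found. A 2-fold change can thus go uncalled, and a probe set not past the threshold was not shown to be unchanged. The number of arrays limits the precision.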

Additional observations from a re-analysis of the deposited data

How the results depend on the processing

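The brighter Steap4 probe set was past the threshold under all 12 alternatives, at -2.23 to -1.75 on the log2 scale (adjusted p from 0.00285 to 0.0482), and at -2.23 to -1.90 with 1 array left out. The count of iron probe sets past it was 2 with the intensity trend and 2 with array weights, where Slc40a1 joined, and 1 with any array left out. The count over all probe sets, 28 as reported, was 14 with a pseudocount of 1, 17 without dim probe sets, 45 with array weights and 8 to 104 with 1 array left out, the extremes being those without null_60 and without CONTROL_406. The count of other iron genes was 0 throughout by limma. Of 186 values of the other 16 probe sets under the alternatives, 173 kept direction and side of the threshold, 2 (Slc40a1) came past it and 11 changed sign. The sign changes were those of Tfrc 1452661_at (-0.0455 as deposited, -0.0915 after median centring), Cybrd1 (-0.0025 with a pseudocount of 1, and -0.0856 to 0.146 with 1 array left out), Tfrc 1422966_a_at (-0.33 to 1.71), Tfrc 1422967_a_at (-0.24 to 0.56) and Steap3 1423468_at (-0.25 to 0.11), the last 3 with 1 array left out. The cause was not tested. No paired analysis was possible because the groups share no replicate numbers. With 1 control array left, its spread was taken from the null arrays.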

Other observations

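The ferritin light chain and transferrin genes were read only by probe sets that the annotation assigns to several symbols, so their values belong to no single gene. The probe set 1422302_s_at of Ftl1 and its pseudogene Ftl1-ps2 read 3059.9, 2587 and 2556 in null and 2729 and 2678 in control arrays, and 1418364_a_at of the same symbols read 1181, 1233 and 1144 in null and 1338 and 1335 in control arrays. The third, 1422301_at, which also carries microRNA symbols, read 123, 137 and 126 in null and 134 and 134 in control arrays. The probe set 1425546_a_at of Trf and Srprb read 246, 191 and 132 in null and 264 and 151 in control arrays, with CONTROL_421 inside the null range.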
